A study of Mus musculus with 11 samples.

Results

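The protamines, the transition proteins and the spermatid linker histones are the proteins that repackage the sperm genome. The 8 genes described here are Prm1, Prm2 and Prm3, Tnp1 and Tnp2, H1fnt (named H1f7 in RefSeq), Hils1 and the kinase gene Tssk6. They were taken by name from the 24411 genes of the deposited count table, all 8 were found, and all 8 passed the filter on low counts in every comparison. The measurement was mRNA of whole decapsulated testis from untreated mice aged 20 weeks, and the genotypes were 4 WT mice, 4 mice with a global knockout of Aco1, which encodes Irp1 (Irp1_KO in the labels, Irp1-/- here), and 3 mice with a global knockout of Ireb2, which encodes Irp2 (Irp2_KO in the labels, Irp2-/- here). The Irp1-/- mice carried the Aco1tm1Roua allele on a C57Bl/6J background, and the study's methods describe WT littermates from crosses of heterozygous Irp1+/- mice. The origin of the Irp2-/- line, and whether its controls were littermates, is not given in the sources used here. The labels name both as global knockouts, so neither deletion was limited to germ cells or to somatic cells, and no protein was measured here.

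Round spermatids carry a histone-based genome. In elongating spermatids most histones are removed, the transition proteins Tnp1 and Tnp2 take their place for a short time, and the arginine-rich protamines Prm1 and Prm2 then pack the DNA of the sperm head. Prm2 is made as a precursor that is cut in steps, Prm3 encodes an acidic protein named for its place in the protamine gene cluster, H1fnt and Hils1 encode linker histones found in spermatids, and Tssk6 is a testis-specific serine kinase needed for normal sperm chromatin. The mRNAs of the protamines and transition proteins are transcribed in round spermatids and stored before they are translated, and an mRNA level does not give the amount of protein.

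Total counts per library were between 15902473 and 22451417, and no libraries of one genotype agreed within sampling noise. The targeted genes followed the labels. Levels are given as CPM, the counts of a gene relative to the library's total after TMM scaling. Aco1 had a level of 11.8 ± 1.36 CPM in WT (SD, n = 4) but of 8.58 ± 0.622 CPM in mice without Irp1 (SD, n = 4), a log2 difference of -0.45 (edgeR, adjusted p = 0.0158). Ireb2 had a level of 140 ± 5.84 CPM in WT (SD, n = 4) but of 62.2 ± 0.514 CPM in mice without Irp2 (SD, n = 3), a log2 difference of -1.16 (edgeR, adjusted p = 2.8e-13). Irp1-/- replicate 7 and Irp2-/- replicate 3 stood apart in the genes described here. Their mean log2 CPM of Prm1, Prm2, Tnp1 and Tnp2 differed from the median of the 11 libraries by 0.23 and -0.29, and the values of the 8 genes are given with and without them where they moved most. Nothing in the labels says that replicates came from separate litters or preparations, so p-values measure the spread between these samples.

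Prm1, Prm2, Prm3 and Tnp2 lie side by side on the minus strand of chromosome 16, between 10787935 and 10796823 of mm10 (8889 bp). The promoters of these 4 genes and of Tnp1 are shown as a description, and no link between promoter sequence and mRNA level was tested. The sequences were read from RefSeq (GRCm38.p6, the mm10 build) along the gene's own strand, from position -100 to -21 relative to the annotated start, and for Prm1 to position -54, since the first exon in GENCODE begins further upstream and already holds the last 10 bases shown, with most of the marked match. Capitals mark matches to TGACNTCA, the cyclic AMP response element TGACGTCA with any base at the place of N, or to the TATA box letters TATAA, each searched on both strands.
Prm1, chr16:10796877-10796923, minus strand: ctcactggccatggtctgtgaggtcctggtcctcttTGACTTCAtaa
Prm2, chr16:10792126-10792205, minus strand: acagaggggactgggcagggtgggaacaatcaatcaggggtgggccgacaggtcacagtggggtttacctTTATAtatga
Prm3, chr16:10790935-10791014, minus strand: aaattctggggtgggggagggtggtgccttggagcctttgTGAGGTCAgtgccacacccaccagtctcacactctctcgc
Tnp1, chr1:73015920-73015999, minus strand: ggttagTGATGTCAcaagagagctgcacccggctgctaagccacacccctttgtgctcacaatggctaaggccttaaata
Tnp2, chr16:10788676-10788755, minus strand: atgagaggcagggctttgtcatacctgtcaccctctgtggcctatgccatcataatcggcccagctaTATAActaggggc

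In the promoter window from 250 bases before to 50 bases after the start, TGACNTCA was found in 4 of the 8 genes, Prm1, Prm3, Tnp1 and Hils1, and in 8.83% of 32851 mouse promoters of the same length. Its first base lay at position -64 in Prm1, -60 in Prm3, -94 in Tnp1 and -7 in Hils1. The match was on the gene's own strand in Prm1 and on the opposite strand in Prm3, Tnp1 and Hils1. The perfect palindrome TGACGTCA, which is contained in TGACNTCA, was in none of the 8 and in 1.79% of all promoters. TATAA was found in 3 of the 8 genes, Prm1, Prm2 and Tnp2, with first bases at positions -32, -30 and -33, against 24.9% of all promoters, and the match in Prm2 was on the opposite strand. These are matches of letters and no binding was measured.

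The core packaging genes were the most abundant of the genes given a transcript length, when counts were divided by that length. Among 20440 genes with a length, Prm2 ranked first in WT at 10756 ± 252 CPM per kb (SD, n = 4). Prm1 at 6573 ± 235, Tnp2 at 6236 ± 191 and Tnp1 at 4482 ± 229 CPM per kb took ranks 2, 3 and 4. The WT ranges of Prm1 (6326 to 6883) and Tnp2 (6049 to 6458) overlapped, whereas Prm2 (10555 to 11115) lay above both and Tnp1 (4219 to 4747) below. Ranges ignore that both genes were measured in the same libraries, and the order of Prm1 and Tnp2 was not tested. The other 4 genes were lower. H1fnt was at 512 ± 2.82, Hils1 at 468 ± 27.9, Prm3 at 432 ± 5.29 and Tssk6 at 240 ± 8.93 CPM per kb (SD, n = 4), in places 83, 91, 110 and 281 of the same order. The 8 genes together held 1.66% ± 0.0463 (SD, n = 4) of all counts in WT, 1.66% ± 0.127 (SD, n = 4) in Irp1-/- and 1.57% ± 0.153 (SD, n = 3) in Irp2-/- testes. In whole tissue a smaller share of a cell type and less mRNA per cell cannot be told apart.

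**Figure D1:**
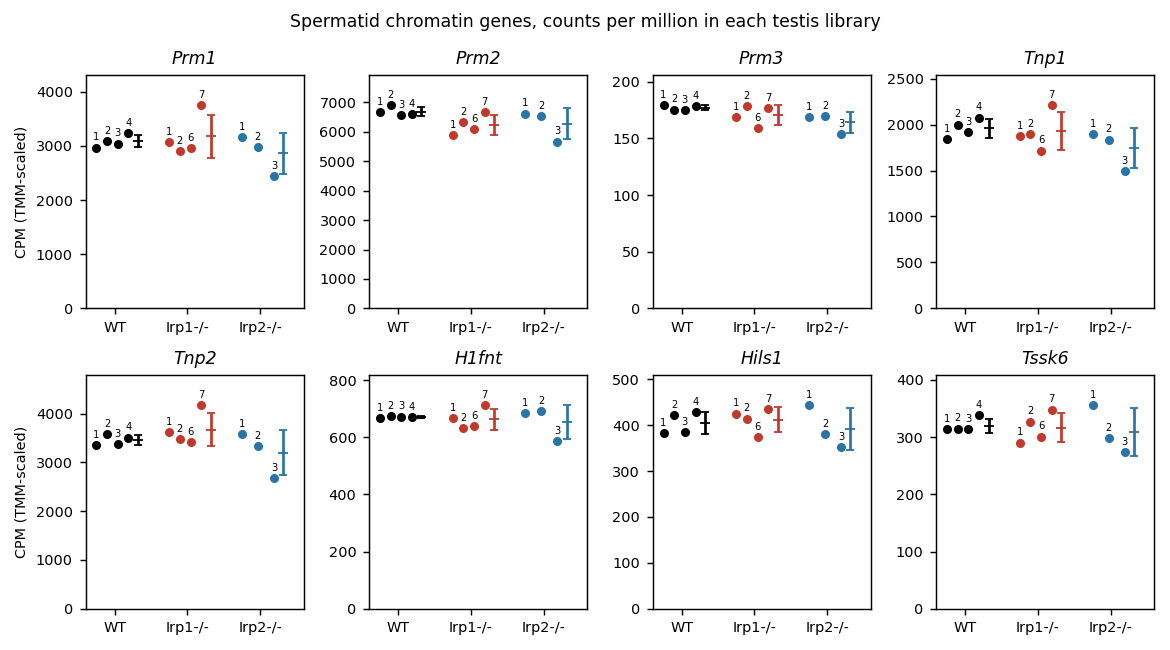
TMM-scaled counts (CPM, vertical axes, starting at 0) of the 8 genes in each WT (black), Irp1-/- (red) and Irp2-/- (blue) library, with replicate numbers beside the points and the mean ± SD to the right of each group. Irp1-/- replicate 7 is the highest Irp1-/- library for 7 of the 8 genes, all except Prm3, and Irp2-/- replicate 3 is the lowest Irp2-/- library for all 8.

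Prm2, the most abundant of the 8, was at 6671, 6903, 6555 and 6590 CPM in the WT libraries. It was at 5877, 6327, 6087 and 6668 CPM in Irp1-/- libraries and at 6612, 6533 and 5658 CPM in Irp2-/- libraries. Irp1-/- replicates 1, 2 and 6 lay below every WT library, and replicate 7 lay among them. The difference from WT was -0.10 on the log2 scale in Irp1-/- (SE 0.038, 95% interval -0.18 to -0.02), with an unadjusted p of 0.0161 and an adjusted p of 0.268 in edgeR, and -0.09 in Irp2-/- (SE 0.051, interval -0.20 to 0.016, adjusted p = 0.656, edgeR). Without Irp2-/- replicate 3 the latter was -0.03. Neither passed the threshold of 0.05 over all genes tested.

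Prm1, the protamine found across mammals, was at 2967, 3093, 3043 and 3228 CPM in WT libraries. It was at 3074, 2906, 2962 and 3752 CPM in Irp1-/- and at 3159, 2983 and 2439 CPM in Irp2-/- libraries. The range of each knockout enclosed or crossed that of WT, with its extreme in the library that stood apart. The log2 differences from WT were 0.04 in Irp1-/- (SE 0.080, 95% interval -0.14 to 0.23, adjusted p = 0.896, edgeR) and -0.11 in Irp2-/- (SE 0.068, interval -0.25 to 0.04, adjusted p = 0.727, edgeR). Without Irp1-/- replicate 7 the former was -0.05, and without Irp2-/- replicate 3 the latter was -0.01.

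Prm3 was at 179, 175, 175 and 178 CPM in WT, at 169, 179, 159 and 177 CPM in Irp1-/-, and at 169, 169 and 154 CPM in Irp2-/- libraries. Prm3 was the only one of the 8 genes whose Irp2-/- libraries all lay below all WT libraries, and no member separated the genotypes in the other comparisons. Of all genes tested, 9.23% separated Irp2-/- from WT in this way, 6.63% separated Irp1-/- from WT and 15.2% separated Irp1-/- from Irp2-/-. The log2 difference of Prm3 between Irp2-/- and WT was -0.11 (SE 0.046, 95% interval -0.20 to -0.01), with an unadjusted p of 0.0295 and an adjusted p of 0.425 in edgeR, and it was -0.07 without replicate 3. In Irp1-/- testes it was -0.05 (SE 0.041, interval -0.14 to 0.03, adjusted p = 0.668, edgeR).

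Tnp1, which encodes a small basic transition protein, was at 1844, 1999, 1917 and 2074 CPM in WT. It was at 1874, 1897, 1717 and 2212 CPM in Irp1-/- and at 1894, 1836 and 1491 CPM in Irp2-/- libraries. Irp2-/- replicate 1 lay within the WT range, replicate 2 just below it and replicate 3 well below. The log2 difference between Irp2-/- and WT was -0.17 (SE 0.070, 95% interval -0.32 to -0.02), with an unadjusted p of 0.0306 and an adjusted p of 0.433 in edgeR, and it was -0.08 without replicate 3. In Irp1-/- it was -0.03 (SE 0.072, interval -0.19 to 0.14, adjusted p = 0.935, edgeR), and it was -0.09 without Irp1-/- replicate 7.

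Tnp2, which encodes a zinc-binding transition protein, was at 3351, 3578, 3383 and 3507 CPM in WT, at 3621, 3486, 3422 and 4171 CPM in Irp1-/-, and at 3579, 3337 and 2681 CPM in Irp2-/- libraries. The genotypes overlapped. The log2 differences from WT were 0.09 in Irp1-/- (SE 0.051, 95% interval -0.02 to 0.20, adjusted p = 0.526, edgeR) and -0.11 in Irp2-/- (SE 0.077, interval -0.28 to 0.06, adjusted p = 0.766, edgeR). Without Irp1-/- replicate 7 the former was 0.03, and without Irp2-/- replicate 3 the latter was -0.0036. Between the knockouts, Tnp2 had the largest difference of the 8 genes, 0.20 (SE 0.11, interval -0.05 to 0.45, adjusted p = 0.432, edgeR), and it was 0.10 without Irp2-/- replicate 3.

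H1fnt, a linker histone gene of spermatids, was at 665, 674, 672 and 669 CPM in WT, the narrowest WT range of the 8 relative to its level. It was at 667, 631, 638 and 711 CPM in Irp1-/- and at 686, 690 and 585 CPM in Irp2-/- libraries, so the knockout libraries lay on both sides of WT. Hils1, the other spermatid linker histone gene, was at 382, 421, 385 and 429 CPM in WT, at 425, 415, 373 and 435 CPM in Irp1-/- and at 443, 380 and 352 CPM in Irp2-/- libraries. Tssk6 was at 313, 315, 313 and 338 CPM in WT, at 290, 327, 301 and 348 CPM in Irp1-/- and at 355, 299 and 274 CPM in Irp2-/- libraries. The WT range was again inside that of either knockout. The log2 differences of H1fnt, Hils1 and Tssk6 from WT were -0.02, 0.03 and -0.02 in Irp1-/- and -0.03, -0.04 and -0.05 in Irp2-/- testes, with adjusted p between 0.886 and 0.936 in edgeR. Without Irp1-/- replicate 7 the former were -0.05, 0.003 and -0.06, and without Irp2-/- replicate 3 the latter were 0.03, 0.02 and 0.03.

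**Figure D2:**
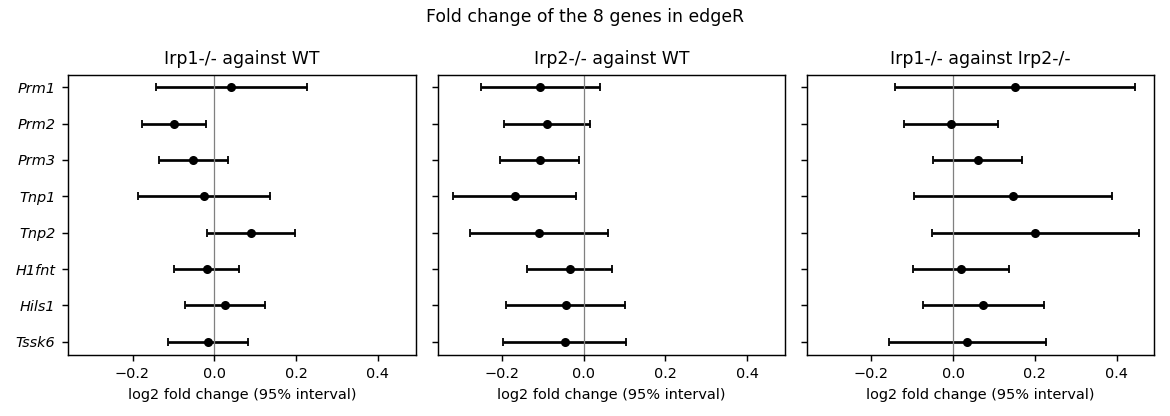
Log2 fold change (horizontal axes) of the 8 genes from edgeR in each comparison, with points for the estimate and bars for the 95% interval. The intervals of Prm2 in Irp1-/- against WT, and of Prm3 and Tnp1 in Irp2-/- against WT, lie below 0, and all others cover 0.

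At an adjusted p under 0.05, 0 of the 8 genes were called in any of the 3 comparisons by edgeR, and 0 by DESeq2. Over all genes tested, the share called by edgeR was 1.02% in Irp1-/- against WT, 1.21% in Irp2-/- against WT and 4.69% in Irp1-/- against Irp2-/-. At an unadjusted p under 0.05, 1 of the 8 genes (Prm2, lower) was below the threshold in Irp1-/- against WT, where 12.1% of all genes were, and 2 (Prm3 and Tnp1, lower) in Irp2-/- against WT, where 9.42% were. Between the knockouts 0 of the 8 were, against 16.3% of all genes, and DESeq2 gave the same numbers of members. The intervals were computed separately for each gene and comparison, and were not widened for the number of genes. Their outermost bounds are given as a description and do not exclude larger differences. In Irp1-/- against WT the bounds of all 8 genes lay between -0.19 and 0.23, or 0.879 to 1.17 times the WT level. In Irp2-/- against WT they lay between -0.32 and 0.10, or 0.802 to 1.07 times the WT level.

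The direction in Irp2-/- testes rested in part on 1 library. All 8 genes had a log2 difference below 0 against WT, with a median of -0.10 where the median of all genes tested was 0.003. Without Irp2-/- replicate 3, 5 of the 8 were below 0 and the median was -0.01, with 0 of 8 at an unadjusted p under 0.05. In Irp1-/- against WT, 5 of the 8 were below 0 with a median of -0.02, and without Irp1-/- replicate 7, 6 were below 0 with a median of -0.06 and the lowest adjusted p, that of Prm2, was 0.0733 in edgeR. Between the knockouts 7 of the 8 were above 0 in Irp1-/- with a median of 0.07, and without Irp2-/- replicate 3, 5 were above 0 with a median of 0.02. The comparisons with WT share their controls.

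Ratios of genes within a library do not depend on its depth. The Prm2 to Prm1 count ratio was 2.25, 2.23, 2.15 and 2.04 in WT, 1.91, 2.18, 2.05 and 1.78 in Irp1-/- and 2.09, 2.19 and 2.32 in Irp2-/- libraries. The groups overlapped, with means of 2.17 ± 0.0945 (SD, n = 4), 1.98 ± 0.174 (SD, n = 4) and 2.20 ± 0.114 (SD, n = 3). A two-sided exact permutation test gave p = 0.143 for Irp1-/- against WT, p = 0.686 for Irp2-/- against WT and p = 0.114 between the knockouts. The log2 difference of this ratio between Irp1-/- and WT was -0.13, and -0.08 without Irp1-/- replicate 7, the lowest library. The Tnp2 to Tnp1 count ratio was 1.82, 1.79, 1.76 and 1.69 in WT and 1.93, 1.84, 1.99 and 1.89 in Irp1-/- libraries. All 4 Irp1-/- libraries lay above all 4 WT libraries, with means of 1.91 ± 0.0665 (SD, n = 4) and 1.77 ± 0.0545 (SD, n = 4). The exact permutation p was 0.0286, the smallest that 4 against 4 samples can give, and it was 0.171 after Benjamini-Hochberg adjustment over the 6 ratio tests, a design that could not pass with 1 such result. The Irp2-/- ratios of 1.89, 1.82 and 1.80 overlapped both other groups (exact p = 0.171 against either, where 0.0571 is the smallest possible). An antisense gene, 1700027A15Rik (229 CPM in WT), overlaps Tnp1 on the opposite strand in the annotation. Whether its reads fall on Tnp1, and any part of them in the ratio, was not tested.

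**Figure D3:**
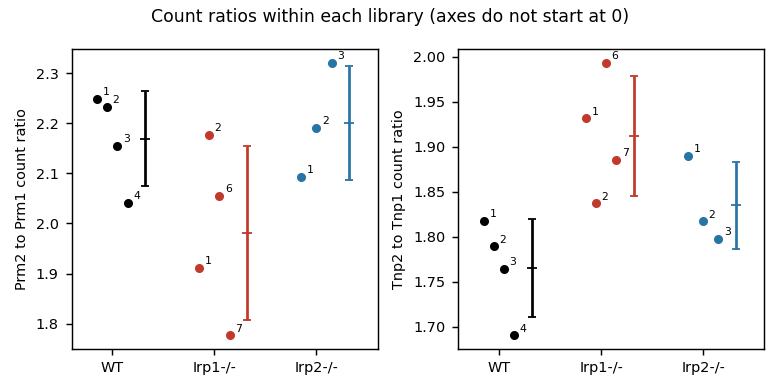
Prm2 to Prm1 (left) and Tnp2 to Tnp1 (right) count ratios in each library, with replicate numbers, and the mean ± SD beside each group (the vertical axes do not start at 0). The Irp1-/- points of the Tnp2 to Tnp1 ratio, 1.84 to 1.99, lie above the WT points, 1.69 to 1.82, and the Prm2 to Prm1 ratios overlap.

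The 8 genes varied together between libraries. Over the 11 libraries, Pearson's r of log2 CPM was between 0.49 and 0.96 in the 28 pairs (median 0.76), and after the mean of each genotype was subtracted it was between 0.61 and 0.96 (median 0.79). After Benjamini-Hochberg adjustment over the 28 pairs, 23 passed 0.05 by Pearson's r and 8 by Spearman's rho in permutation tests. The share of other gene pairs that would pass is not given here, so these counts do not set the 8 genes apart from other genes. The strongest pairs were Prm1 with Tnp2 (r = 0.96, permutation p = 9.8e-04, adjusted 0.00549; rho = 0.76, permutation p = 0.00845, adjusted 0.0296) and Prm1 with Tnp1 (r = 0.93, permutation p = 3.0e-04, adjusted 0.0042; rho = 0.78, permutation p = 0.00673, adjusted 0.0296). Without the 2 libraries farthest from the median of the first gene, r fell to 0.55 for Prm1 with Tnp2 and to 0.69 for Prm1 with Tnp1, and over all 28 pairs it ranged from -0.35 to 0.88 (median 0.41). Tnp2 with Hils1 kept its strength (r = 0.80, permutation p = 1.3e-04, adjusted 0.00364; rho = 0.88, permutation p = 6.9e-04, adjusted 0.0148; r = 0.88 without the 2 libraries). With Irp1-/- replicate 7 and Irp2-/- replicate 3 left out of every pair, 26 of 28 coefficients were above 0 and their median was 0.45, against 0.76 with all 11 libraries.

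**Figure D4:**
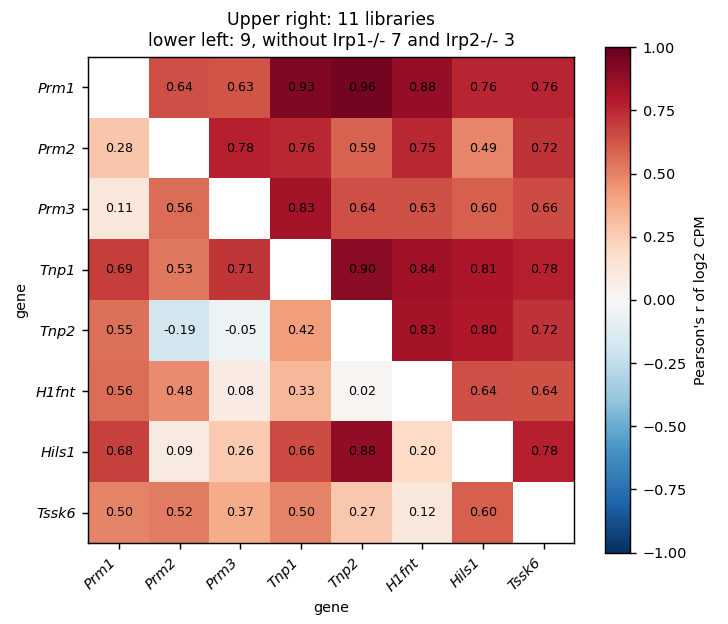
Pearson's r of log2 CPM (colour scale and printed values) between the 8 genes, over 11 libraries in the upper right and over the 9 libraries left without Irp1-/- replicate 7 and Irp2-/- replicate 3 in the lower left. Values are 0.49 to 0.96 in the upper right and -0.19 to 0.88 in the lower left.

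The libraries that set this pattern were high or low in more than these genes. In Irp1-/- replicate 7, 8 of the 8 genes were above their median library, by a median of 0.12 on the log2 scale, and so were 170 of 196 other genes with transcripts of 400 to 700 nt and a mean of at least 10 CPM (median 0.08). In Irp2-/- replicate 3, 8 of the 8 genes were below their median library, with a median of -0.22, and so were 174 of the 196 other short transcripts (median -0.12). Markers of elongating spermatids that are not among the 8 genes, Odf1, Odf2, Akap4, Oaz3, Smcp, Capza3 and Gapdhs, were at 0.00 in Irp1-/- replicate 7 and at -0.15 in Irp2-/- replicate 3, where 7 of 7 were below their median library. Irp2-/- replicate 1 was high in the short transcripts as well (median 0.08), with the 8 genes at 0.04. The part of transcript length or of spermatid number in the values of the 8 genes was not tested.

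**Figure D5:**
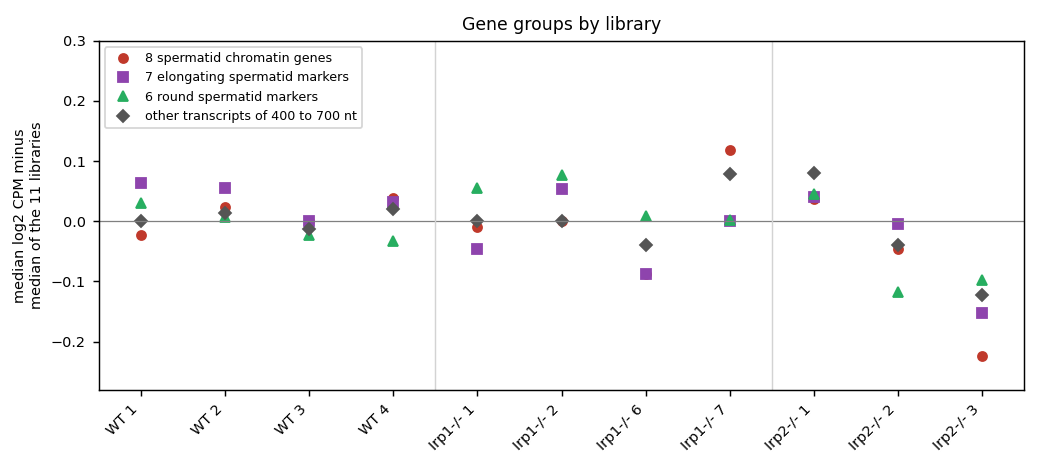
Median log2 CPM of each gene group relative to the median of the 11 libraries (vertical axis), by library (horizontal axis), for the 8 genes (red circles), 7 elongating spermatid markers (purple squares), 6 round spermatid markers (green triangles) and 196 other transcripts of 400 to 700 nt (grey diamonds). Where a circle is hidden it lies under another symbol. The 8 genes are highest in Irp1-/- replicate 7 (0.12) and lowest in Irp2-/- replicate 3 (-0.22).

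With all libraries included, the spread of the 8 genes was larger in the knockouts than in WT. The SD of log2 CPM exceeded that of WT for 8 of the 8 genes in Irp1-/- testes, where it did so for 49.98% of all genes tested, and for 8 of the 8 in Irp2-/- testes, where it did so for 51.6%. Without Irp1-/- replicate 7 it did so for 6 of the 8 genes (42.2% of all genes), and without Irp2-/- replicate 3 for 4 of the 8 (43.2%). The 8 genes varied together between libraries, so these counts are not 8 separate results, and the difference in spread was not tested.

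Cell type markers gave the setting of these values. The summed level of the 7 elongating spermatid markers was 15170 to 15822 CPM in WT, 14230 to 15562 CPM in Irp1-/- and 13855 to 15316 CPM in Irp2-/- libraries, and 0 of 7 were called. Their log2 differences from WT were below 0 for 6 of 7 in Irp1-/- (median -0.06) and for 7 of 7 in Irp2-/- testes (median -0.07). The 6 round spermatid markers summed to 930 to 983 CPM in WT, 957 to 996 CPM in Irp1-/- and 900.3 to 984 CPM in Irp2-/- libraries, and 0 of 6 were called. Against WT, 6 of 6 were above 0 in Irp1-/- (median 0.03) and 4 of 6 were below 0 in Irp2-/- testes (median -0.06). Of the 7 spermatocyte markers, 6 were below 0 in Irp1-/- (median -0.07) and 4 were above 0 in Irp2-/- testes (median 0.01). The 7 Sertoli cell markers summed to 1145 to 1231 CPM in WT and 1264 to 1422 CPM in Irp1-/- libraries, with all 7 above 0 in log2 difference and Clu called (0.16, adjusted p = 0.0473, edgeR). Clu made up most of these sums, with means of 832 CPM in WT and 932 CPM in Irp1-/- testes. Relative to the median library, the Sertoli markers had medians of 0.22, 0.06 and 0.07 in Irp1-/- replicates 1, 6 and 7. Irp1-/- replicate 2 (0.001) lay within the WT range (-0.08 to 0.007). The 5 Leydig cell markers summed to 681 to 961 CPM in WT and 913 to 1112 CPM in Irp1-/- libraries, with all 5 above 0 (median 0.41) and 0 called. WT replicates 1 and 2 had all 5 Leydig markers below the median library (medians -0.51 and -0.94), and WT replicates 3 and 4 (0.07 and 0) lay at the level of Irp1-/- replicates 6 and 7 (-0.01 and 0.06). Between the knockouts, Hsd3b1 (0.68, adjusted p = 0.0170, edgeR) and Insl3 (0.27, adjusted p = 0.0425, edgeR) of the Leydig list were called higher in Irp1-/-, as was Rhox5 of the Sertoli list. Of the 7 spermatogonia, 7 spermatocyte, 3 peritubular myoid and 4 macrophage markers, 0 were called against WT, as were 0 of the blood markers tested (2 of 4 in Irp1-/- and 1 of 4 in Irp2-/-), and Sall4 of the spermatogonia was called lower in Irp1-/- than in Irp2-/- testes. Blood markers summed to 15.2 to 20.0 CPM in WT, 21.2 to 38.3 CPM in Irp1-/- and 8.42 to 22.5 CPM in Irp2-/- libraries. Epididymis markers were at or near 0, at most 0.251 CPM in sum. The part of these somatic cell differences in the values of the 8 genes was not tested.

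Genes that act around the histone exchange were read from 4 lists, and 0 genes of any list were called in any comparison by edgeR. Of the germ line and variant histones, 7 of 8 were tested, with a median log2 difference from WT of -0.05 in Irp1-/- and -0.01 in Irp2-/- testes. The lowest unadjusted p among them was that of H2afb1, the row matched to the short histone H2A variant H2al2a through a RefSeq synonym, at 86.1 ± 2.50 CPM (SD, n = 4) in WT and 77.9 ± 7.92 CPM (SD, n = 4) in Irp1-/- testes (-0.15, adjusted p = 0.272, edgeR), and H2afx followed (0.12, adjusted p = 0.285, edgeR). The most abundant was the H3.3 gene H3f3b at 438 ± 13.7 CPM (SD, n = 4) in WT. The testis linker histone gene Hist1h1t was at 1.42 ± 0.380 CPM (SD, n = 4) in these poly(A)-selected libraries.

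All 14 genes of histone acetylation, ubiquitination and removal were tested, with medians of -0.04 in Irp1-/- and -0.02 in Irp2-/- against WT. Brdt, the bromodomain reader of acetylated histones in spermatids, was at 339 ± 11.7 CPM (SD, n = 4) in WT and 323 ± 3.59 CPM (SD, n = 4) in Irp1-/- testes, and Phf7, a ubiquitin ligase, was the most abundant at 2361 ± 53.6 CPM (SD, n = 4) in WT. Of the 15 genes of transcription and translation control, 13 were below 0 against WT in Irp1-/- (median -0.05) and 13 in Irp2-/- (median -0.03), where the medians of all genes tested were -7.9e-04 and 0.003. Both comparisons share the WT libraries. Relative to the median library, this list was highest in WT replicates 1 and 2 (medians 0.07 and 0.05). WT replicates 3 and 4 (-0.006 and -0.01) lay among the knockout libraries (-0.07 to 0.02). The most abundant gene of this list was Ybx2, which binds and stores spermatid mRNAs, at 2576 CPM in WT. The differences between the knockouts were 0.12 for the transcription factor gene Rfx2 (adjusted p = 0.210, edgeR) and -0.11 for Sox30 (adjusted p = 0.287, edgeR). Among the 7 other testis-specific serine kinases and partners, the lowest unadjusted p in Irp1-/- against WT were those of Tsks, a substrate of these kinases (-0.11, adjusted p = 0.175, edgeR), and Tssk3 (-0.11, adjusted p = 0.272, edgeR).

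The genes whose level followed the mean log2 CPM of Prm1, Prm2, Tnp1 and Tnp2 most closely over the 11 libraries, among 9399 genes with a mean of at least 10 CPM, were Tsta3 (r = 0.95), Meig1 (r = 0.95), Spata7 (r = 0.94), 4930503B20Rik (r = 0.94) and Spata4 (r = 0.94). Without Irp1-/- replicate 7 and Irp2-/- replicate 3 these were 0.86, 0.81, 0.53, 0.71 and 0.85. They were picked as the highest of many and carry no test. The tested neighbours of the loci, Socs1 and Rmi2 beside the chromosome 16 cluster, Igfbp5 and Tns1 beside Tnp1, Ccdc184 and Zfp641 beside H1fnt, Col1a1 and Ppp1r9b beside Hils1 and Cilp2 and Gatad2a beside Tssk6, were not called against WT, and Igfbp5 was called lower in Irp1-/- than in Irp2-/- (-0.96, adjusted p = 0.0334, edgeR). Opposite-strand genes overlap Hils1 (Sgca, 7.68 CPM in WT) and Tssk6 (Ndufa13, 162 CPM in WT) as well. The study's methods name a stranded library kit, but the strand setting of the counting is not given in the sources used here. Whether the counts kept reads of these pairs apart is therefore not known.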

How the data were processed

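Testis mRNA of 4 WT, 4 Irp1-/- and 3 Irp2-/- mice was analysed. The authors deposited raw read counts per gene. Reads were demultiplexed with bcl2fastq (2.20.0.422 per the submitters' processing notes) and aligned to mm10 and counted within the nf-core RNA-seq workflow. The counting tool and its strand setting are not given in the sources used here, so the whole-number counts could be rounded estimates. Genotypes were those of the sample titles. The column of Irp1-/- replicate 6 is marked R and the other columns L, and what these letters mean is not stated.

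Tests used edgeR 4.0.16 in R 4.3.3 (TMM, filterByExpr, robust quasi-likelihood test) on the samples of the 2 genotypes compared. P-values were adjusted by Benjamini-Hochberg over all genes tested, and the script was tested on simulated data. DESeq2 1.42.0, the tool of the study, was an alternative. CPM were scaled by TMM over all 11 samples. Log2 CPM used a prior count of 2, except in the correlations between the 8 genes, where none was added. Intervals came from the fold change and its standard error. Ratios were tested by two-sided exact permutation tests and correlations by 100000 permutations (scipy 1.17.1). Transcript lengths came from GENCODE M21 (GRCm38), as the longest transcript of a gene matched to a RefSeq mRNA, and genes without such a match were not ranked. Promoters of all 8 genes came from RefSeq GRCm38.p6.

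The 8 genes and all lists were chosen with earlier results of these data known. Lists covered histones, histone removal, mRNA control, testis-specific kinases and markers of somatic testis cells (Sertoli, Leydig, peritubular myoid, macrophage), of germ cells (elongating and round spermatids, spermatocytes, spermatogonia), of epididymis and of blood. Named genes were the 8 genes, the targeted genes, from each list those of smallest p and highest level, the 5 genes most alike and the neighbours, and not every gene under that rule is reported here. Total counts of 15902473 to 22451417 set the precision, and each of the 8 genes had at least 2813 counts in every library. Alternatives were RLE and total-count scaling, scaling without the 8 genes, other filters, DESeq2, a fit of all 11 samples, the replicate number as a block and fits without each replicate in turn. Leaving out Irp1-/- replicate 7 and Irp2-/- replicate 3 from correlations and spreads was chosen after seeing the data.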

Additional observations from a re-analysis of the deposited data

Results flagged for a closer look

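Of 22 groups of 4 libraries examined (each of the 8 genes, their share of the library and the 2 ratios in WT and in Irp1-/-), 2 held a library far from the other 3, where chance gives about 1.1. Tssk6 was at 337.68 CPM in WT replicate 4 and at 313 to 315 CPM in the other WT libraries. The share of the library held by the 8 genes was 1.84875% in Irp1-/- replicate 7 and 1.58% to 1.61% in the other Irp1-/- libraries. Groups of 3 Irp2-/- libraries were too small for this comparison. The cause of either value was not tested.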

How the results depend on the processing

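None of the 8 genes was called under another scaling, filter, DESeq2, the fit of all 11 samples or any fit that left out a replicate, and under every scaling the median log2 difference of all genes was at most 0.0231 from 0. Samples with the same replicate number showed little likeness (same-number correlations of deviations from group means -0.009 to 0.077). Whether they shared a litter or preparation is not known. With a replicate block, 439 genes and 1 member, Prm2 (-0.16, adjusted p = 0.0112, edgeR), were called in Irp1-/- against WT, where 164 genes and 0 members were without it. The block reversed Prm1 in Irp1-/- against WT (-0.0209) and Prm1 (-0.0340), H1fnt (-0.0797) and Tssk6 (-0.0761) between the knockouts, and the log2 Prm2 to Prm1 ratio of Irp2-/- against WT (-0.00788). Only shared numbers entered the block on ratios. In the edgeR block, too, a number found in a single genotype adds nothing to the fold change. Irp1-/- shares only replicate numbers 1 and 2 with WT, and likewise with Irp2-/-. The block values of these comparisons therefore rested on those libraries alone, with little left to measure spread. Why more genes were called was not tested.

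Leaving out 1 replicate gave 55 (without Irp1-/- replicate 1) to 216 genes called in Irp1-/- against WT, 118 (without Irp2-/- replicate 2) to 223 in Irp2-/- against WT and 414 (without Irp2-/- replicate 2) to 763 between the knockouts. Fits without Irp1-/- replicate 6 (102), WT replicate 2 (84) or WT replicate 4 (106) also moved the first count, and the fit without Irp1-/- replicate 1 (471) the last, by over 1.5 times. Fewer samples entered these fits. Log2 differences near 0 changed sign. In Irp1-/- against WT the ranges were -0.0453 to 0.0820 for Prm1, -0.0950 to 0.0259 for Tnp1, -0.0510 to 0.00410 for H1fnt and -0.0601 to 0.0234 for Tssk6. In Irp2-/- against WT they were -0.0721 to 0.0326 for H1fnt, -0.142 to 0.0202 for Hils1 and -0.159 to 0.0274 for Tssk6, all above 0 without Irp2-/- replicate 3. Between the knockouts they were -0.0670 to 0.0347 for Prm2, -0.0477 to 0.0573 for H1fnt and -0.0399 to 0.146 for Tssk6. The log2 Prm2 to Prm1 ratio of Irp2-/- against WT ranged from -0.0176 to 0.0567. The Tnp2 to Tnp1 ratio of Irp1-/- against WT kept its direction, from 0.09 to 0.13.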
